A study of Rattus norvegicus with 6 samples.

Results

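The genes described here are 10 rat genes of glucuronidation. They are the UDP-glucuronosyltransferases Ugt2b37, Ugt2b15, Ugt2b35, Ugt2b7, Ugt2b10, Ugt2a3, Ugt1a1 and Ugt1a6, their relative Ugt8, and Ugdh, the enzyme that makes their cosubstrate. A probe was taken when the accession deposited for it belonged to one of these genes, which gave 16 probes of 61537 on the array and 10 of the 15645 genes that could be named. The genes were chosen by their differences between p-nitroanisole and vehicle arrays, which earlier work on these data had shown to be large for several of them. Those differences are therefore a description and carry no weight as a test of the family. RNA was measured on 1-colour Agilent arrays, 1 array per animal, in the renal cortex, the outer layer of the kidney. The treated group was 3 rats on p-nitroanisole, 500 mg/kg daily over 4 weeks, and the vehicle group 3 rats on corn oil for the same time. All 6 were male Sprague-Dawley rats of the Crl:CD(SD) stock, bought at 5 weeks of age, with no genetic change named in the labels. Neither the dosing route nor the interval between the last dose and tissue collection is stated in those labels.

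Glucuronosyltransferases sit in the membrane of the endoplasmic reticulum and join glucuronic acid, carried by UDP, to phenols, bilirubin, steroids and many drugs. The product is water soluble and leaves the cell through export pumps. The Ugt1a enzymes come from a single locus in which each has its own first exon and all share the later exons, whereas each Ugt2b enzyme is a gene of its own in a cluster. p-Nitroanisole is a methyl ether that cytochrome P450 enzymes open to p-nitrophenol, a phenol long used as a test substrate for glucuronidation. Kidney cortex is known for glucuronidation in its proximal tubule cells.

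Between 40877 and 42601 probes per array were well above background by the scanner software, and no spot was saturated. All 11 proximal tubule markers were well above background on every array, as the tissue label requires. Of 7 hepatocyte markers 5 were well above background on every array, while Cps1, a urea cycle enzyme, was well above it on none. The arrays of treated replicates 1 and 2 and of the 3 vehicle rats lay on 1 slide, and the array of treated replicate 3 lay on another, which was scanned separately. Levels below are log2 intensities relative to each array's 75th percentile, so that 0 is a probe at that percentile and 1 unit is a doubling. Differences are p-nitroanisole minus vehicle on this scale. Brightness depends on the probe, so the level of one probe is not set against that of another. The labels call the samples of a group biological replicates.

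In the RefSeq assembly GRCr8 the Ugt2b genes lie side by side on chromosome 14. Ugt2b15, Ugt2b37, Ugt2b35 and Ugt2b7 follow each other there, with only an unnamed protein-coding locus between Ugt2b15 and Ugt2b37. By the brightest tested probe of each gene, the first 3 had large differences between the groups and Ugt2b7 did not. The sequences of these neighbours are shown for that reason. Each is the 250 bases before the gene's annotated start, 5′ to 3′ on the plus strand, from RefSeq GRCr8, at chr14:21171886-21172135 for Ugt2b37, chr14:21122616-21122865 for Ugt2b15, chr14:21208191-21208440 for Ugt2b35 and chr14:21251285-21251534 for Ugt2b7. Capitals mark a run of 25 bases that all 4 share.
Ugt2b37 promoter: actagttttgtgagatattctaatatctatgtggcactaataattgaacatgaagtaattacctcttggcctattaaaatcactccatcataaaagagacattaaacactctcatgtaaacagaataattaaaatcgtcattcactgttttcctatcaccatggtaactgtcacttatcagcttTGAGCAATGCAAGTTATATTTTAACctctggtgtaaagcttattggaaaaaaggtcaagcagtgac
Ugt2b15 promoter: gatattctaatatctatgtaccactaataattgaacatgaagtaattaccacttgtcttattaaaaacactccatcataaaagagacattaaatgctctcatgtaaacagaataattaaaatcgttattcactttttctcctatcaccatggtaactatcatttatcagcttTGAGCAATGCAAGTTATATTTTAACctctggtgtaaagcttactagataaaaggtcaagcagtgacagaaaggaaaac
Ugt2b35 promoter: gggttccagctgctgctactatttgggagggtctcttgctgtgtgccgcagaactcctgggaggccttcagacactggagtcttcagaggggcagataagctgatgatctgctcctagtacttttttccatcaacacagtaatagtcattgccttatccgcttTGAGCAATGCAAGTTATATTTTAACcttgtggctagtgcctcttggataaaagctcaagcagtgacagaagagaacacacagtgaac
Ugt2b7 promoter: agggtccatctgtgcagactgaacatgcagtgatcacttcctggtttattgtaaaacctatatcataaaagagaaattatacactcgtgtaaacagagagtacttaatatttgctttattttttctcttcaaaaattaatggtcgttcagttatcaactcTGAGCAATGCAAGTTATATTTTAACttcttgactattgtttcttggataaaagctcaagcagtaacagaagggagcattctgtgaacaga

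The shared run begins 66 bases before the start of Ugt2b37, 78 before Ugt2b15, 87 before Ugt2b35 and 90 before Ugt2b7. It was searched for after the values were seen, and 6 of 27457 promoters of this length hold it (0.0219%). These are the 4 shown, Ugt2b and Ugt2b7l1, all glucuronosyltransferase genes. A longer run of 31 bases is shared by Ugt2b37, Ugt2b15, Ugt2b35 and Ugt2b, and by no other promoter of the table (4 promoters, 0.0146%). The genes with large differences therefore share the 25 bases with Ugt2b7, whose groups overlapped, and the 31 bases with Ugt2b, whose probes were not well above background on any array. Across the aligned 250 bases the promoters of Ugt2b37 and Ugt2b15 were 84.4% identical. Ugt2b35 was 55.8% identical to Ugt2b37 and 56.6% to Ugt2b15, which is less than the 65.1% between Ugt2b15 and Ugt2b7. The promoter most like Ugt2b35 among these was thus that of Ugt2b7, at 65%.

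The letters of 3 short motifs were searched for on both strands in the promoters of all 10 genes. They were TGACNNNGC, the core of the antioxidant response element that NRF2 binds, GCGTG, the core of the xenobiotic response element that the aryl hydrocarbon receptor binds, and GTTAAT, part of the site of the HNF1 factors of kidney and liver. The shares of all 27457 promoters with a match were 10.2%, 27.2% and 6.46%, in that order. None of the motifs matched in the 250 bases of Ugt2b37, Ugt2b15, Ugt2b35, Ugt2b7 or Ugt2b10, which says only that these letters are not in this window. The promoters of Ugt1a6 and Ugdh held the most matches and are shown, from RefSeq GRCr8, plus strand, at chr9:96194768-96195017 and chr14:43202268-43202517. Capitals mark the matches.
Ugt1a6 promoter: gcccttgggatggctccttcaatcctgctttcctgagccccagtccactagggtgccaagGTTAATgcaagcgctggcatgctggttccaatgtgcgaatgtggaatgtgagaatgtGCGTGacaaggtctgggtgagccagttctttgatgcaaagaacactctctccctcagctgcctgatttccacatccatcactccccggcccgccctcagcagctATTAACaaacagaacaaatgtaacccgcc
Ugdh promoter: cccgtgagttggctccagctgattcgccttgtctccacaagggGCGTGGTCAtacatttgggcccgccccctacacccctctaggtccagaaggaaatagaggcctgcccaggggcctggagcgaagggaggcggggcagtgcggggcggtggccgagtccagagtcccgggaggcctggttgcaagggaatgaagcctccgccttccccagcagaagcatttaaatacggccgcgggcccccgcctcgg

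In Ugt1a6 the GCGTG match began 133 bases before the start, and GTTAAT matched at 190 bases and, on the other strand, at 29 bases. In Ugdh a match to TGACNNNGC on the minus strand and a match to GCGTG on the plus strand overlapped, both beginning 207 bases before the start. Single matches were found to GTTAAT in Ugt1a1 and Ugt2a3 and to GCGTG in Ugt8. A match is a description of the letters and not a site shown to be bound.

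Ugt2b37, Ugt2b15 and Ugt2b35 are 3 microsomal transferases of the Ugt2b cluster. By their lead probes, the brightest tested probe of each gene, they were about 4-fold higher in p-nitroanisole cortex than in vehicle cortex. Second probes gave less, 1.32-fold with overlapping groups for Ugt2b37 and 2.43-fold for Ugt2b15. Ugt2b37 had levels of 4.56, 4.38 and 3.94 in p-nitroanisole rats, against 2.11, 2.16 and 2.23 in vehicle rats, by its lead probe (A_64_P099254). Every treated animal was above every vehicle animal, and the vehicle animals lay close together. The means were 4.29 ± 0.32 in p-nitroanisole rats and 2.17 ± 0.06 in vehicle rats (SD, n = 3 each). The difference was 2.13 with a standard error of 0.16 and a 95% interval of 1.72 to 2.53, or 4.36-fold. It passed the threshold of 0.05 with a limma adjusted p of 0.0403 over all features, which are named genes and unnamed probes.

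Ugt2b15, whose human namesake conjugates androgens, had levels of 2.55, 2.35 and 1.60 in p-nitroanisole rats, against 0.05, 0.02 and 0.23 in vehicle rats (probe A_44_P247784). The groups did not overlap, and treated replicate 3 was the lowest of the treated animals. The difference was 2.07 with a standard error of 0.25 and a 95% interval of 1.45 to 2.68, a 4.19-fold difference that missed the threshold, with a limma adjusted p of 0.0804. A second probe of Ugt2b15 (A_64_P011301) read -0.90, -0.97 and -1.51 in p-nitroanisole rats, against -2.56, -2.17 and -2.49 in vehicle rats. Its groups did not overlap either, with a smaller difference of 1.28 and a standard error of 0.19.

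Ugt2b35, the neighbour of Ugt2b37, had levels of 6.58, 6.41 and 5.67 in p-nitroanisole rats, against 4.20, 4.21 and 4.32 in vehicle rats, by its single probe (A_44_P236068). The vehicle animals again spanned a narrow range that no treated animal reached. The means were 6.22 ± 0.48 in p-nitroanisole rats and 4.24 ± 0.07 in vehicle rats (SD, n = 3 each), a difference of 1.98 with a standard error of 0.24 and a 95% interval of 1.39 to 2.57. This was a 3.94-fold difference, and its limma adjusted p was 0.0804. Among all 32197 features tested, the differences of Ugt2b37, Ugt2b15 and Ugt2b35 ranked 25th, 29th and 35th of those in the upward direction.

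**Figure D1:**
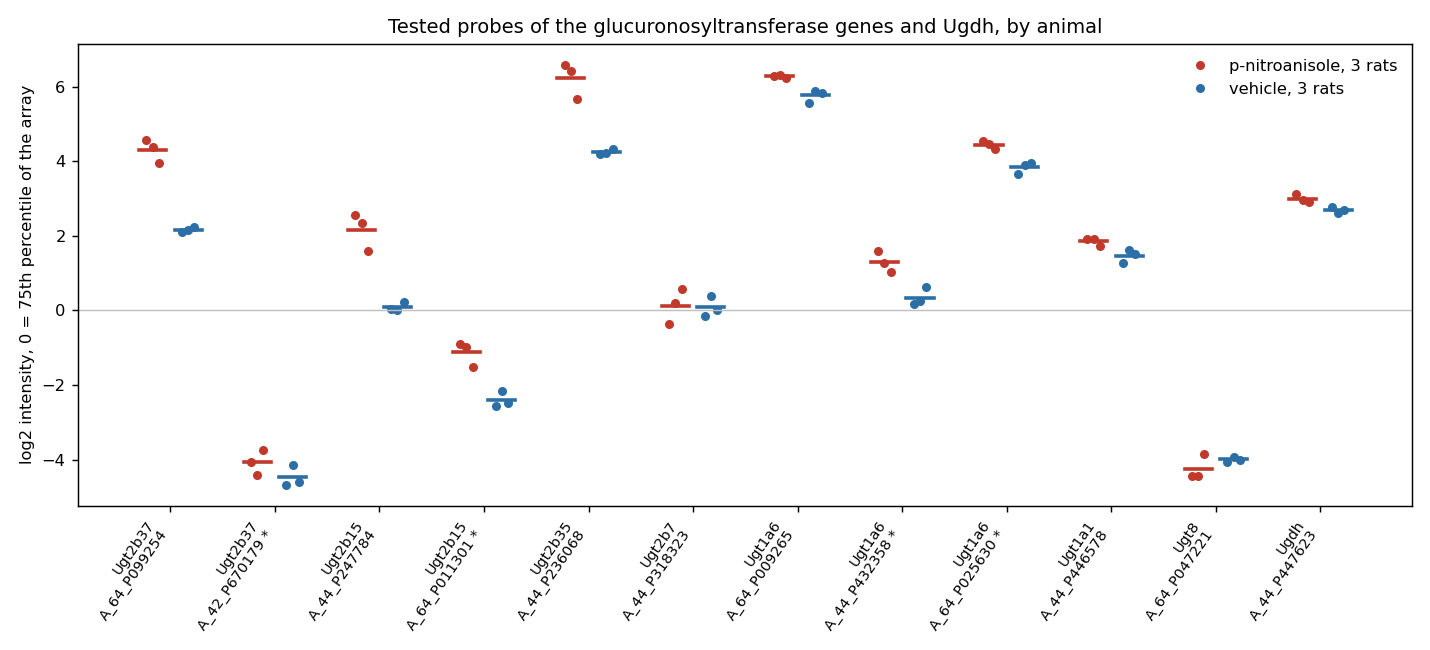
Levels (log2 intensity relative to each array's 75th percentile, vertical axis) of the 12 tested probes, with p-nitroanisole rats to the left of vehicle rats, points for animals and short lines for group means (n = 3 each). Stars mark probes other than the lead probe. By the lead probes of Ugt2b37, Ugt2b15 and Ugt2b35 the p-nitroanisole points lie well above the vehicle points (means of 4.29 in p-nitroanisole and 2.17 in vehicle rats for Ugt2b37), whereas those of Ugt2b7 and of the second Ugt2b37 probe overlap them. Heights are not comparable between genes.

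The 3 treated animals differed in level. Set against the vehicle mean, Ugt2b37 differed by 2.40, 2.21 and 1.77 in treated replicates 1, 2 and 3, Ugt2b15 by 2.45, 2.25 and 1.50, and Ugt2b35 by 2.34, 2.17 and 1.43. Treated replicate 3 was the lowest for all 3 genes and also the only array on the second slide, so animal and slide cannot be told apart there. Within slide 1, with 2 treated and 3 vehicle arrays, the differences were 2.30 for Ugt2b37, 2.35 for Ugt2b15 and 2.26 for Ugt2b35. Their standard errors were 0.09, 0.11 and 0.09, and their limma adjusted p-values were 0.0182, 0.0199 and 0.0182. All 3 passed on that slide, where limma called 9 of all 32197 features. That fit leaves out the treated animal that was lowest for all 3 genes, and its smaller standard errors are to be read with this. In the other direction, the call of Ugt2b37 over all arrays was lost when any 1 animal other than treated replicate 3 was left out, with limma adjusted p-values of 0.123 to 0.151 and differences of 1.99 to 2.16.

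**Figure D2:**
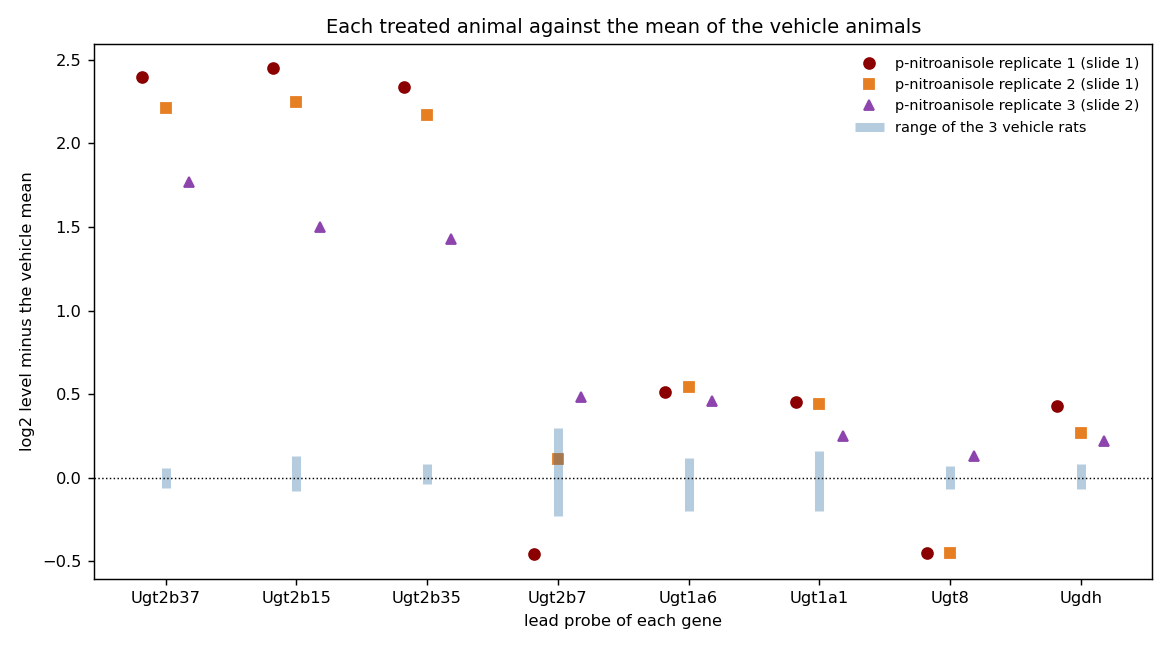
Level of each treated animal minus the vehicle mean (log2, vertical axis) for the lead probes of the 8 tested genes, with grey-blue bars for the range of the 3 vehicle rats. The points of Ugt2b37, Ugt2b15 and Ugt2b35 lie between 1.43 and 2.45, with treated replicate 3 (triangle, slide 2) lowest in each of them.

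A second, dimmer probe of Ugt2b37 (A_42_P670179) did not show the difference of the first. It read -4.07, -4.41 and -3.73 in p-nitroanisole rats, against -4.67, -4.15 and -4.59 in vehicle rats. Its groups overlapped, and its difference was 0.40 with a standard error of 0.22 and a 95% interval of -0.13 to 0.93. Both probes were well above background on all 6 arrays, and the intervals of their differences do not meet. When the 2 probes were averaged, the difference of Ugt2b37 was 1.26 with a limma adjusted p of 0.0515, past the threshold no longer. The array files used here give no probe sequences, so how far the probes of neighbouring Ugt2b genes read each other's transcripts was not tested.

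Among the other genes of the cluster only Ugt2b7 could be tested, and the rest were too dim to show a difference or were not found among the named probes. Ugt2b7, whose human namesake conjugates morphine, had levels of -0.37, 0.19 and 0.57 in p-nitroanisole rats, against -0.15, 0.38 and 0.02 in vehicle rats. The groups overlapped throughout, and the difference of 0.04 had a 95% interval of -0.61 to 0.69. Ugt2b10, whose human namesake conjugates tertiary amines, was well above background on 1 of 3 p-nitroanisole arrays and on none of the 3 vehicle arrays, so it was not tested. Its levels were -5.10, -7.63 and -6.05 in p-nitroanisole rats, against -7.96, -6.16 and -6.34 in vehicle rats, with overlap. Ugt2a3, a transferase known from liver and gut, was not well above background on any array by either of its 2 probes. Its brighter probe read -7.79, -7.65 and -7.67 in p-nitroanisole rats, against -7.94, -8.01 and -8.06 in vehicle rats, values that lie in the background. Of the genes of the cluster outside the 10, Ugt2a1, an olfactory form, Ugt2b and Ugt2b1 were likewise not well above background on any array.

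The probes of Ugt1a6 and Ugt1a1 read higher in p-nitroanisole cortex by smaller amounts, and that of Ugt1a9 did not differ beyond its error. Ugt1a6, the form best known for planar phenols such as p-nitrophenol, had levels of 6.28, 6.31 and 6.23 in p-nitroanisole rats, against 5.57, 5.89 and 5.83 in vehicle rats (lead probe A_64_P009265). The groups did not overlap. The difference was 0.51 with a standard error of 0.10 and a 95% interval of 0.26 to 0.75, or 1.42-fold, with a limma adjusted p of 0.16.

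A second Ugt1a6 probe (A_64_P025630) read 4.54, 4.47 and 4.33 in p-nitroanisole rats, against 3.67, 3.91 and 3.94 in vehicle rats, a difference of 0.61 with a standard error of 0.10. The third (A_44_P432358), assigned to another Ugt1a6 transcript, read 1.60, 1.27 and 1.03 in p-nitroanisole rats, against 0.16, 0.24 and 0.63 in vehicle rats. That probe had the widest gap of the 3, 0.96 with a standard error of 0.19 and a 95% interval of 0.50 to 1.42, and no overlap between the groups. Ugt1a1, which conjugates bilirubin, had levels of 1.92, 1.91 and 1.72 in p-nitroanisole rats, against 1.27, 1.63 and 1.51 in vehicle rats. Its groups were separate by a small margin, and its difference was 0.38 with a standard error of 0.12 and a limma adjusted p of 0.28.

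All 8 protein-coding Ugt1a genes of the RefSeq table end at the same position, as genes with shared last exons do. A probe in those exons would read every Ugt1a transcript, so the gene names of the Ugt1a probes are uncertain. Ugt1a2, not among the 10 genes, had levels of 4.44, 4.35 and 4.26 in p-nitroanisole rats, against 3.68, 3.93 and 3.94 in vehicle rats. Its groups were separate too. The difference of Ugt1a2 was 0.50 with a standard error of 0.10 and a limma adjusted p of 0.16, and its second probe gave 0.56 with a standard error of 0.11. Ugt1a9 had levels of -2.60, -3.20 and -3.33 in p-nitroanisole rats, against -3.29, -3.14 and -2.78 in vehicle rats, and its difference was 0.03 with a standard error of 0.23. The RefSeq list holds 18 further glucuronosyltransferase genes, of which 5 were found on the array and 2, Ugt1a2 and Ugt1a9, were tested. Limma called neither (1 at an unadjusted p under 0.05).

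Ugt8 is a galactosyltransferase of myelin and kidney lipids that resembles the family in sequence, and Ugdh oxidises UDP-glucose to UDP-glucuronate. Ugt8 had levels of -4.44, -4.44 and -3.86 in p-nitroanisole rats, against -4.06, -3.92 and -4.00 in vehicle rats. The treated animals lay on both sides of the vehicle animals, and the difference of -0.26 had a 95% interval of -0.68 to 0.17. A second Ugt8 probe, well above background on 2 of 3 arrays of each group and so not tested, read -5.35, -6.04 and -5.51 in p-nitroanisole rats, against -5.21, -6.38 and -5.35 in vehicle rats. Ugdh had levels of 3.11, 2.95 and 2.91 in p-nitroanisole rats, against 2.77, 2.62 and 2.68 in vehicle rats. These groups did not overlap, with a difference of 0.31, a standard error of 0.08, a 95% interval of 0.10 to 0.51 and a limma adjusted p of 0.235.

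Of the 10 genes 8 could be tested, and 12 of their 16 probes. Limma called 1 of the 8, Ugt2b37, where it called 0.0745% of all features (24 of 32197). The limma adjusted p-values of the other 7 ranged from 0.0804 to 0.955, and 6 of the 8 had an unadjusted p under 0.05, as 13.4% of all features did. In 6 of the 8 every p-nitroanisole animal was above every vehicle animal, as in 11.9% of all features. In none was every one below, where 3323 of all 32197 features were. By single probes, 9 of 12 were separated upwards, as were 11.6% of all probes tested. The median difference of the 8 genes was 0.44, with a range of -0.26 to 2.13, and that of all features was 0.01. Since the genes were taken up with these differences known, the counts describe them and nothing is read from them.

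**Figure D3:**
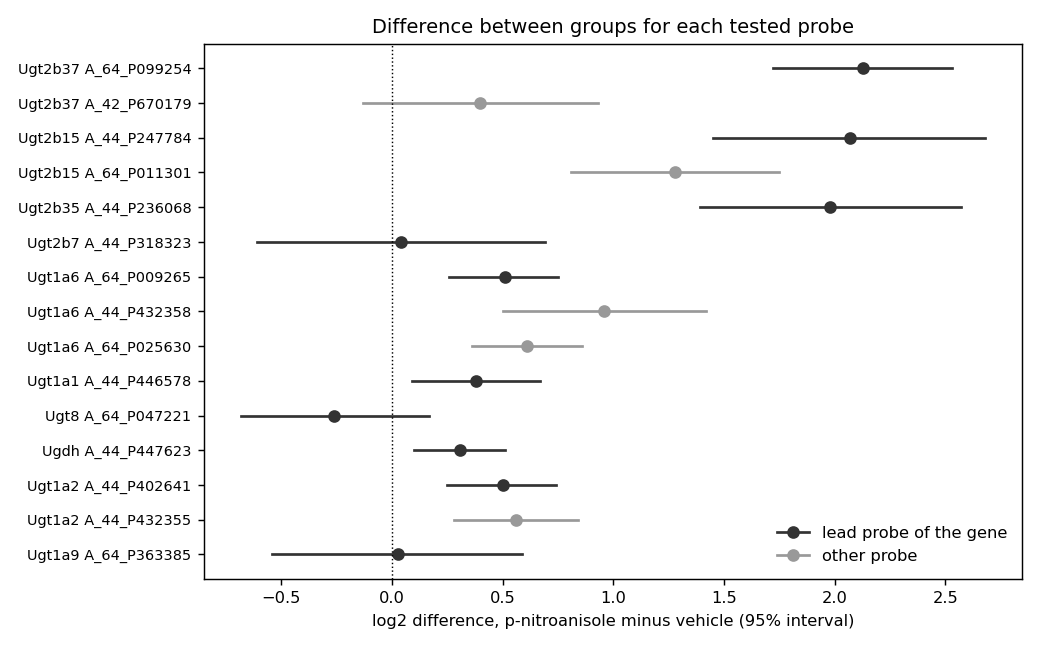
Difference (p-nitroanisole minus vehicle, log2, horizontal axis) of every tested probe of the 10 genes and of Ugt1a2 and Ugt1a9, with 95% limma intervals. Lead probes of Ugt2b37, Ugt2b15 and Ugt2b35 lie near 2 (2.13, 2.07 and 1.98), the probes of Ugt1a6, Ugt1a1, Ugt1a2 and Ugdh between 0.31 and 0.96, and the intervals of Ugt2b7, Ugt8, Ugt1a9 and the second Ugt2b37 probe include 0.

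Over the 6 arrays, the lead probe of Ugt2b37 was compared with those of 12206 other genes. The measure was the root mean square of the gap between their levels, each centred on its own mean. Levels were not scaled to equal spread, so the size of the group difference enters the measure. Ugt2b15 and Ugt2b35 were the closest of all, both at 0.12 log2 units. The next were Alas2, the erythroid enzyme that starts heme synthesis, at 0.30, then Polr3g at 0.34, Add2 at 0.35, Slc38a3, a glutamine transporter, at 0.35 and S100a8, a neutrophil protein, at 0.37. Ugt1a6 came 300th at 0.83, Ugt1a1 493rd at 0.89, Ugdh 698th at 0.92, Ugt2b7 9525th at 1.15 and Ugt8 11412th at 1.25. The measure uses the same arrays that drew attention to these genes and is given as a description.

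Red cell and neutrophil markers were higher in every p-nitroanisole animal, as the 3 Ugt2b genes were by their lead probes. Such upward separation was seen in 11.9% of all features. The summed level of the 4 red cell markers on the array, in multiples of the 75th percentile, was 873 to 975 in p-nitroanisole cortex and 425 to 513 in vehicle cortex, and that of 3 neutrophil markers was 1.27 to 1.37 in p-nitroanisole cortex and 0.433 to 0.582 in vehicle cortex. Limma called 1 of the 4 red cell and 1 of the 3 neutrophil markers, where it called 0.0745% of all features. The macrophage sum was 2.18 to 3.01 in p-nitroanisole cortex and 3.02 to 3.33 in vehicle cortex, and the T cell sum was 0.362 to 0.662 in p-nitroanisole cortex and 0.5 to 0.658 in vehicle cortex. The collecting duct sum was 164 to 175 in p-nitroanisole cortex and 179 to 202 in vehicle cortex, like the macrophage sum without overlap. The endothelial sum was 33.1 to 35.7 in p-nitroanisole cortex and 35.9 to 37.6 in vehicle cortex, also without overlap. Of its 4 markers 2 were higher and 2 lower. The podocyte sums of the groups overlapped, as did those of thick limb and distal tubule. The 3 macrophage markers tested did not move together: 2 were lower and 1 higher, with a median difference of -0.05 (-0.43 to 0.01). Only 1 of them was separated downwards, as were 3323 of all 32197 features. Limma called no macrophage, T cell, collecting duct or endothelial marker (1, 0, 1 and 1 at an unadjusted p under 0.05). The part of these cells in the Ugt2b differences was not tested. The proximal tubule sum was 1690 to 1808 in p-nitroanisole cortex and 1649 to 1682 in vehicle cortex, higher by a narrow margin. The hepatocyte sum, with 5 of 7 markers well above background, was 5.02 to 7.85 in p-nitroanisole cortex and 5.1 to 7.9 in vehicle cortex. In whole cortex a change in the number of cells of a type and a change in RNA per cell cannot be told apart.

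The supply of UDP-glucuronic acid was followed in 23 further genes that make, use, move or break down this sugar, of which 19 were tested. Limma called none (4 at an unadjusted p under 0.05), 12 were higher and 7 lower, and their median difference was 0.03. Cryl1, the gulonate dehydrogenase that breaks down glucuronic acid, had levels of 6.85, 7.00 and 6.83 in p-nitroanisole rats, against 6.45, 6.22 and 6.39 in vehicle rats. These groups were separate, with a difference of 0.54, a standard error of 0.09 and a limma adjusted p of 0.133. Slc35d2, a nucleotide sugar transporter, differed by 0.36 (SE 0.14). B3gat1, a glucuronyltransferase of cell surface glycans, was well above background on all 3 vehicle arrays and on no p-nitroanisole array. It thus entered the test through the vehicle group alone, which favours a lower level in p-nitroanisole cortex. Set against the lowest level well above background, the group means give a bound of 1.31-fold lower by the processed intensity. The bound carries no error, and limma did not call the gene (adjusted p of 0.287). The lower level did not hold with normexp background correction, where the difference was -0.04 with a limma adjusted p of 0.809.

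Sulfation competes with glucuronidation for phenols. Of 10 genes for it 6 were tested, 2 higher and 4 lower, with a median difference of -0.22, and limma called none (2 at an unadjusted p under 0.05). Sult1b1, a phenol and thyroid hormone sulfotransferase, had levels of 3.25, 3.40 and 3.48 in p-nitroanisole rats, against 4.26, 3.79 and 4.50 in vehicle rats. Every p-nitroanisole animal was below every vehicle animal, and the difference was -0.81 with a standard error of 0.19 and a limma adjusted p of 0.195. Sult1a1, the main phenol sulfotransferase, was also separate, with levels of 2.38, 2.30 and 2.32 in p-nitroanisole rats, against 2.42, 2.88 and 2.95 in vehicle rats, a difference of -0.42 (SE 0.15). Sult1c3 differed by -1.04 with a standard error of 0.67 and Sult1c2 by 0.36 with a standard error of 0.38, and in both the groups overlapped.

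Glucuronides leave the cell through ABC transporters. Limma called none of the 6 such genes (3 at an unadjusted p under 0.05), and their median difference was 0.20. Abcc4, the pump MRP4 of the proximal tubule's luminal membrane, had levels of 3.24, 3.60 and 2.99 in p-nitroanisole rats, against 2.41, 2.37 and 2.23 in vehicle rats. The groups did not overlap, and the difference was 0.94 with a standard error of 0.16 and a limma adjusted p of 0.135. Its 3 other probes gave differences of 0.84 to 1.03. Abcc2, the luminal pump MRP2, differed by 0.51 (SE 0.18) and Abcc3, the basolateral pump MRP3, by 0.31 (SE 0.07), both without overlap. Abcg2 differed by 0.08 with a standard error of 0.13.

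Receptors that control glucuronosyltransferase genes in other settings, and known target genes of these receptors, were followed as well. Of 13 receptors and factors 8 were higher and 5 lower, with a median of 0.10, and limma called none (2 at an unadjusted p under 0.05). Nr1h4, the bile acid receptor FXR, had levels of 5.42, 5.34 and 5.35 in p-nitroanisole rats, against 4.99, 4.93 and 4.79 in vehicle rats, a difference of 0.47 (SE 0.08) with a limma adjusted p of 0.128. Ahr, the aryl hydrocarbon receptor, was separate in the other direction, at -4.27, -4.33 and -4.26 in p-nitroanisole rats, against -3.76, -4.09 and -3.78 in vehicle rats, a difference of -0.41 (SE 0.11) that was -0.08 with normexp background correction. Its repressor Ahrr differed by -0.78 (SE 0.39) and the fatty acid receptor Ppara by 0.45 (SE 0.28), both with overlap.

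Of 6 target genes of the aryl hydrocarbon receptor 2 were tested, and limma called neither (1 at an unadjusted p under 0.05). Cyp1a1 and Cyp1a2, its best known targets, were not well above background on any array. Nqo1, a quinone reductase that NRF2 also controls, had levels of -1.83, -1.65 and -2.28 in p-nitroanisole rats, against -3.21, -2.75 and -2.69 in vehicle rats, with a difference of 0.96 (SE 0.21) and a limma adjusted p of 0.179. Aldh3a1 differed by 0.03 (SE 0.07).

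Of 11 target genes of NRF2, the factor that answers oxidants, 10 were tested and all 10 were higher, with a median difference of 0.73. Of all features 16887 of 32197 were higher. Limma called 1 of the 10 (5 at an unadjusted p under 0.05), Hmox1, the heme oxygenase that starts the path to bilirubin. Over all features these shares were 0.0745% and 13.4%. The list was chosen with earlier results of these data known, so its counts are a description. Hmox1 had levels of 1.83, 1.44 and 2.01 in p-nitroanisole rats, against -1.87, -1.66 and -1.71 in vehicle rats. It rose by 3.51 with a standard error of 0.16, or 11.4-fold, with a limma adjusted p of 0.02. That call was lost without treated replicate 1, vehicle replicate 1 or vehicle replicate 2, with limma adjusted p-values of 0.112 to 0.137 and differences of 3.45 to 3.55. Of 10 target genes of the drug receptors CAR and PXR 4 were tested, with a median of 0.28, and limma called none (2 at an unadjusted p under 0.05). Cyp2b1, Cyp3a2, Cyp3a9 and Cyp3a62 were not well above background on any array, and Cyp3a18 and Abcb1a were on too few to be tested. Por, the reductase that feeds electrons to P450 enzymes, differed by 0.64 (SE 0.18) and Alas1, which starts heme synthesis outside red cells, by -0.53 (SE 0.13), neither with overlap. Cyp2b3 differed by 0.47 (SE 0.25) and Cyp2b2 by 0.10 (SE 0.10). Cyp2b3 was well above background on all 3 p-nitroanisole arrays and on 2 of 3 vehicle arrays. It thus entered the test, and the median of the list, through the p-nitroanisole group alone, which favours a higher level there.

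**Figure D4:**
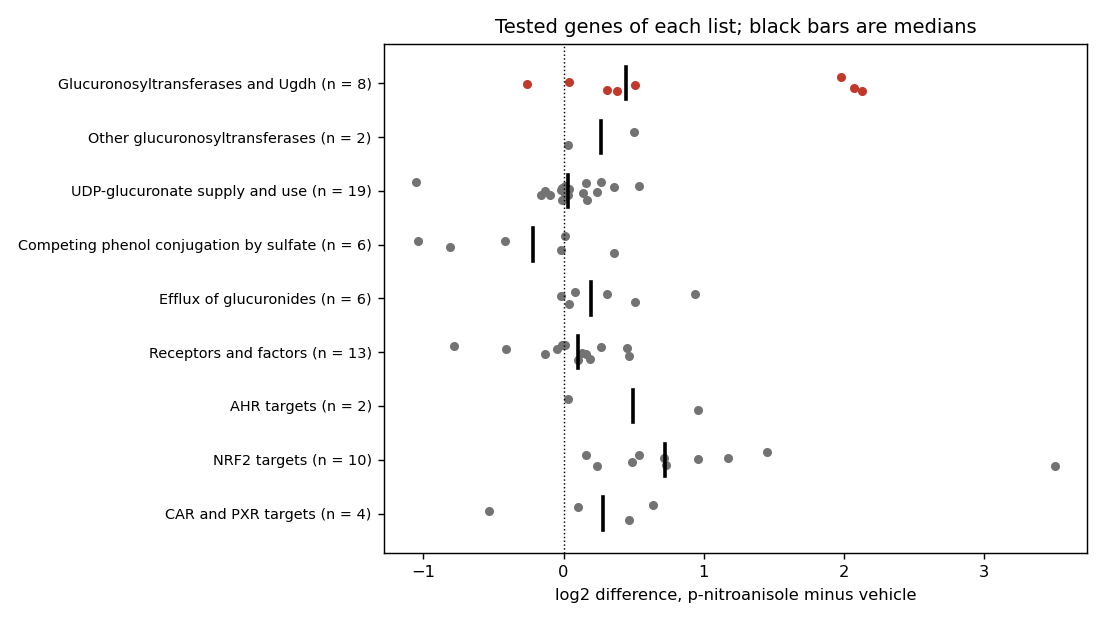
Difference (p-nitroanisole minus vehicle, log2, horizontal axis) of each tested gene of the 10 genes, of the other glucuronosyltransferases and of 7 lists of related genes, with a line at the median of each list. The medians run between -0.22 (sulfation) and 0.73 (NRF2 targets), that of the 10 genes is 0.44, and Hmox1 at 3.51 is the highest point. The B3gat1 point is its measured difference, not the bound given in the text.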

How the data were processed

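Renal cortex RNA of 3 p-nitroanisole and 3 vehicle rats was labelled with Cy3 and hybridised to 1 array each. Spot intensity was deposited as the scanner software wrote it (Agilent Feature Extraction, version 10.7.1.1 in the file headers and 10.7 in the submitters' processing notes), with background removed and no scaling across arrays. The series matrix of the authors is linear: its signal is the processed intensity over a constant for each array (879.0 to 1023.6), without centring, and served as an alternative. Column medians in it were 0.109, 0.108 and 0.111 for p-nitroanisole arrays and 0.105 for each vehicle array.

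Intensities under 1 were set to 1, taken to log2 and reduced by the array's own 75th percentile, computed without control spots (877.4 to 1022.4). Control spots and 0 to 4 outlier spots an array were dropped. Testing required a probe to be well above background, by the scanner software's flag, in every animal of p-nitroanisole or of vehicle. Genes were represented by their tested probe of highest mean level (lead probe), and unnamed probes by themselves, in all 32197 features. The test was limma's moderated comparison (limma 3.58.1, R 4.3.3, no trend, not robust), two-sided, with Benjamini-Hochberg adjustment across all features and a threshold of 0.05. It was tested on simulated data. Other probes of the genes come from a fit of all 41219 tested probes. The number of arrays limits the precision.

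Symbols came by accession from RefSeq GRCr8, which named 28206 probes (45.84%). The promoter table matched all 10 genes, and only the 250 bases before each start were used. The genes, the lists of related genes and the markers were chosen with earlier results of these data known. Named are the 10 genes with every probe and, of each list, the called genes or otherwise the 4 tested genes with the largest absolute difference, of which 1 is not reported here. Alternatives covered scaling, background, the dim-probe filter, the probe rule, variance model, slide, replicate number, threshold and leaving out each animal.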

Additional observations from a re-analysis of the deposited data

How the results depend on the processing

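All 8 tested genes except Ugt2b7 kept their direction under the 20 alternatives, and the median difference of the 8 stayed between 0.38 and 0.53. The number called moved, over all features (24) and among the 8 genes (1). With normexp correction on the median signal, chosen after seeing the files because they hold no mean signal (the planned version was not run), limma called 82 features and 3 of the 8 genes. Without a filter on dim probes it called 2 and 0, with the mean of a gene's probes 14 and 0, with a trended robust variance 316 and 3, and 9 and 3 both with slide as a fixed block and within slide 1. At a threshold of 0.01 it called 0 and 0 (4329 and 6 at an unadjusted p under 0.05), and without 1 animal 0 to 9 and 0 to 3 (3262 to 4361 and 5 to 7 at an unadjusted p under 0.05). In the fits where none was called, 5 to 7 genes were at an unadjusted p under 0.05. The 7 came without the filter on dim probes, where Ugt2b10 and Ugt2a3 also entered the fit, so they are not all among the 8. In that fit Ugt8 and Ugt2b7 had limma adjusted p-values of 0.519 and 0.954.

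The replicate numbers do not pair the samples: deviations of same-numbered arrays correlated at -0.009, 0.04 and -0.01. With the replicate number as a block limma called 1 feature and 0 of the 8 genes (6 at an unadjusted p under 0.05).

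Slide as a fixed block, within slide 1 and without p-nitroanisole replicate 3 are the same fit, since slide 2 holds that array alone, and the counts here hold it 3 times. Ugt2b37 lost its call under 9 of 20 alternatives, with differences of 1.26 to 2.30 and limma adjusted p-values of 0.00987 to 0.225 over all 20. Of 658 values of 33 genes, 613 kept direction and side of the threshold, 12 passed it anew (5 each of Ugt2b15 and Ugt2b35, 3 of those 5 from that same fit), 14 no longer did and 19 changed sign, the last in genes whose difference was no larger than its standard error. Leaving out 1 animal gave -0.18 to 0.29 for Ugt2b7, -0.20 to 0.17 for Ugt1a9, -0.02 to 0.16 for Abcg2, -0.0032 to 0.08 for Aldh3a1 and -0.02 to 0.60 for Sult1c2. With median scaling Ugt2b7 was -0.01, Ugt1a9 -0.03 and Aldh3a1 -0.03, and with quantile scaling Ugt1a9 was -0.02. With slide as a fixed block or within slide 1 Ugt2b7 was -0.18 and Abcg2 -0.01, and with slide as a random block Ugt2b7 was -0.03. The mean of its probes gave -0.05 for Aldh3a1. Leaving out 1 animal also moved Sult1c3 (-1.65 to -0.55), Ahrr (-1.21 to -0.46), Ppara (0.23 to 0.77) and Ugt8 (-0.45 to -0.16), none of them called. With normexp B3gat1 was -0.04, Ahr -0.08 and Ugt8 -0.06. The causes were not tested. Signal near background limits Ugt2b10, Ugt2a3, B3gat1, Cyp2b3, Ahr and the Ugt8 probes.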
